A study of Homo sapiens with 9 samples.

Results

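The mitochondrial genome is the small circle of DNA kept in many copies in the mitochondria. All bins named chrM in the 3 deposited tables were taken, which gave 17 of 3137207 bins. They cover 16571 bases with 16 bins of 1 kb and a last bin of 571 bases, and hold all 37 mitochondrial genes. EdU, a thymidine analogue that marks newly made DNA, was given to growing cells, which were then sorted into early, mid and late S phase, and the marked DNA was pulled down and sequenced. HCT116 is a human colorectal carcinoma line and gave 1 set of 3 libraries. RPE1, a human line from the retinal pigment epithelium made immortal by telomerase, gave 2 sets of 3 libraries. All 9 libraries came from cells grown in the same medium, with no treatment besides the pulse, and the labels leave unsaid whether RPE1 sets 1 and 2 were grown as separate cultures. For HCT116 the labels number 2 of the 3 libraries as replicate 2 and leave 1 without a number. The count columns carry no names, so libraries are called A, B and C by position, and no library is assigned to a fraction of S phase. A letter shared between sets marks the same column position only. The libraries held 6170299 to 22930078 reads.

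Mitochondrial DNA is copied by its own machinery, with DNA polymerase gamma and the helicase Twinkle, and this copying is not tied to S phase. The circle encodes 13 proteins of the respiratory chain, 2 ribosomal RNAs and 22 transfer RNAs. Its main noncoding stretch, the control region, holds the promoters and the origin of the heavy strand, and copying that begins there often stops early and leaves a short extra strand, which makes the D-loop. In the linear reference the control region is split between the last bin, which it fills almost wholly, and the first bin, which it shares with MT-TF (the phenylalanine tRNA) and the start of MT-RNR1 (12S rRNA).

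Mitochondrial reads were a small part of every library. In HCT116, libraries A, B and C had 15240, 12003 and 9758 of them, which was 0.177, 0.0978 and 0.147% of their reads. RPE1 set 1 had 21941, 7517 and 16539, or 0.158, 0.122 and 0.104%. RPE1 set 2 had 24378, 14857 and 19932, or 0.106, 0.0927 and 0.121%. The libraries of the 2 lines overlapped. The widest 95% Wilson interval, that of HCT116 library C, ran from 0.144 to 0.150%, so counting error was small against the differences within a set. These intervals cover counting error only.

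Averaged over its libraries, HCT116 had a mitochondrial share of 0.141%, against 0.117% ± 0.015 in RPE1 (SD, n = 2 sets). The ratio was 1.198 for the RPE1 mean, 1.10 against RPE1 set 1 and 1.32 against RPE1 set 2, while RPE1 set 2 had 0.833 times the share of RPE1 set 1. With 1 HCT116 set and 2 RPE1 sets no test was made, since an exact permutation could not reach 0.05. On the scale of nuclear DNA, the circle carried 241 times the reads of a mean covered autosomal bin per kb in HCT116, and 205 ± 26.2 times in RPE1 (SD, n = 2). Against the median autosomal bin the values were 312 times in HCT116 and 278 ± 79.1 times in RPE1, but that median was only 2 to 6 reads per library and is a coarse base.

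**Figure D1:**
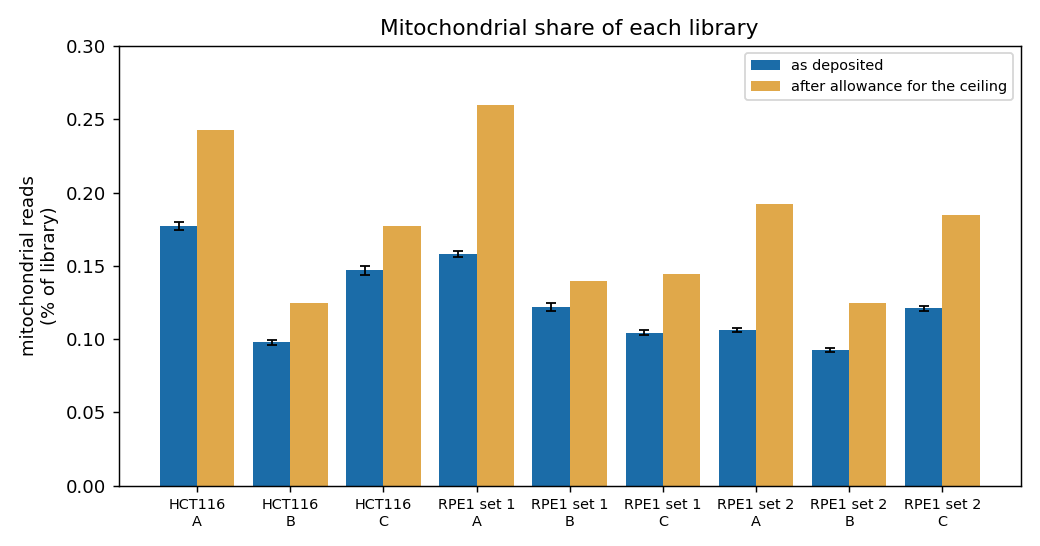
Mitochondrial reads as a percentage of all reads in each of the 9 libraries, as deposited (blue, bars of 95% Wilson intervals) and after allowance for the ceiling of duplicate removal (orange). As deposited the shares run from 0.0927 to 0.177%, and every library stands higher after the allowance.

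The names of the tables point to removal of duplicate reads, and this limits how many reads a deeply covered bin can show. If 1 read is kept for each start and strand, reads of 50 bases that overlap a full 1 kb bin can number at most 2098. No bin of any library exceeded 2098, and the highest anywhere held 2029, in HCT116 library B on the unplaced contig gl000220. How full the mitochondrial bins were differed widely between libraries. RPE1 set 2 library A, the deepest library, had 70.4% of the possible reads over the whole circle and 87.0% in its fullest bin. RPE1 set 1 library B, the shallowest, had 21.7% over the circle. All 17 mitochondrial bins of the deepest library were over 50% full, against 4 bins on all 22 autosomes together.

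Counts near a ceiling understate the DNA present, and more so in deep libraries. Treating starts as equally likely, the number of reads before removal was estimated from the filled fraction of each bin. This raised mitochondrial reads 1.15 times in the shallowest library and 1.80 times in the deepest. The estimated shares in libraries A, B and C were 0.243, 0.125 and 0.177% in HCT116, 0.260, 0.140 and 0.145% in RPE1 set 1, and 0.192, 0.124 and 0.185% in RPE1 set 2. Library B was then lowest in all 3 sets, whereas as deposited library C was lowest in RPE1 set 1. The mean share became 0.182% in HCT116 and 0.174% ± 0.010 in RPE1 (SD, n = 2), a ratio of 1.04. The gap between the lines was thus smaller than the spread of the RPE1 sets. How duplicates were removed is not stated in the sources used here, so these values hold only under the rule assumed.

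Along the circle, read density was uneven, with low points in bins 2 and 8 and a high stretch at bins 14 and 15 in all 9 libraries. The coefficient of variation over the 17 bins averaged 30.6% in HCT116 and 19.1% ± 3.32 in RPE1 (SD, n = 2). The libraries of the lines overlapped, with 25.1 to 33.7% in HCT116 and 13.03 to 32.6% in RPE1. Within RPE1 it was highest in the shallowest library, B of set 1, and lowest in the deepest, A of set 2. With the ceiling allowed for, the lowest in RPE1 was library C of set 1 at 24.4%, against 26.7% in A of set 2. In HCT116, as deposited, the deepest library, B, had 33.1% and library A had 25.1%. Without the first and last bins the coefficient averaged 21.1% in HCT116 and 20.1% ± 3.50 in RPE1, as deposited. Over the 15 other bins, pairs of 1 HCT116 and 1 RPE1 library correlated at r = 0.929 to 0.984, and pairs of RPE1 libraries at 0.910 to 0.991. With all 17 bins the pairs between the lines fell to 0.577 to 0.854, while pairs within RPE1 stayed at 0.903 to 0.985. Bins share their base composition and mapping in every library, so these are descriptions of one profile.

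**Figure D2:**
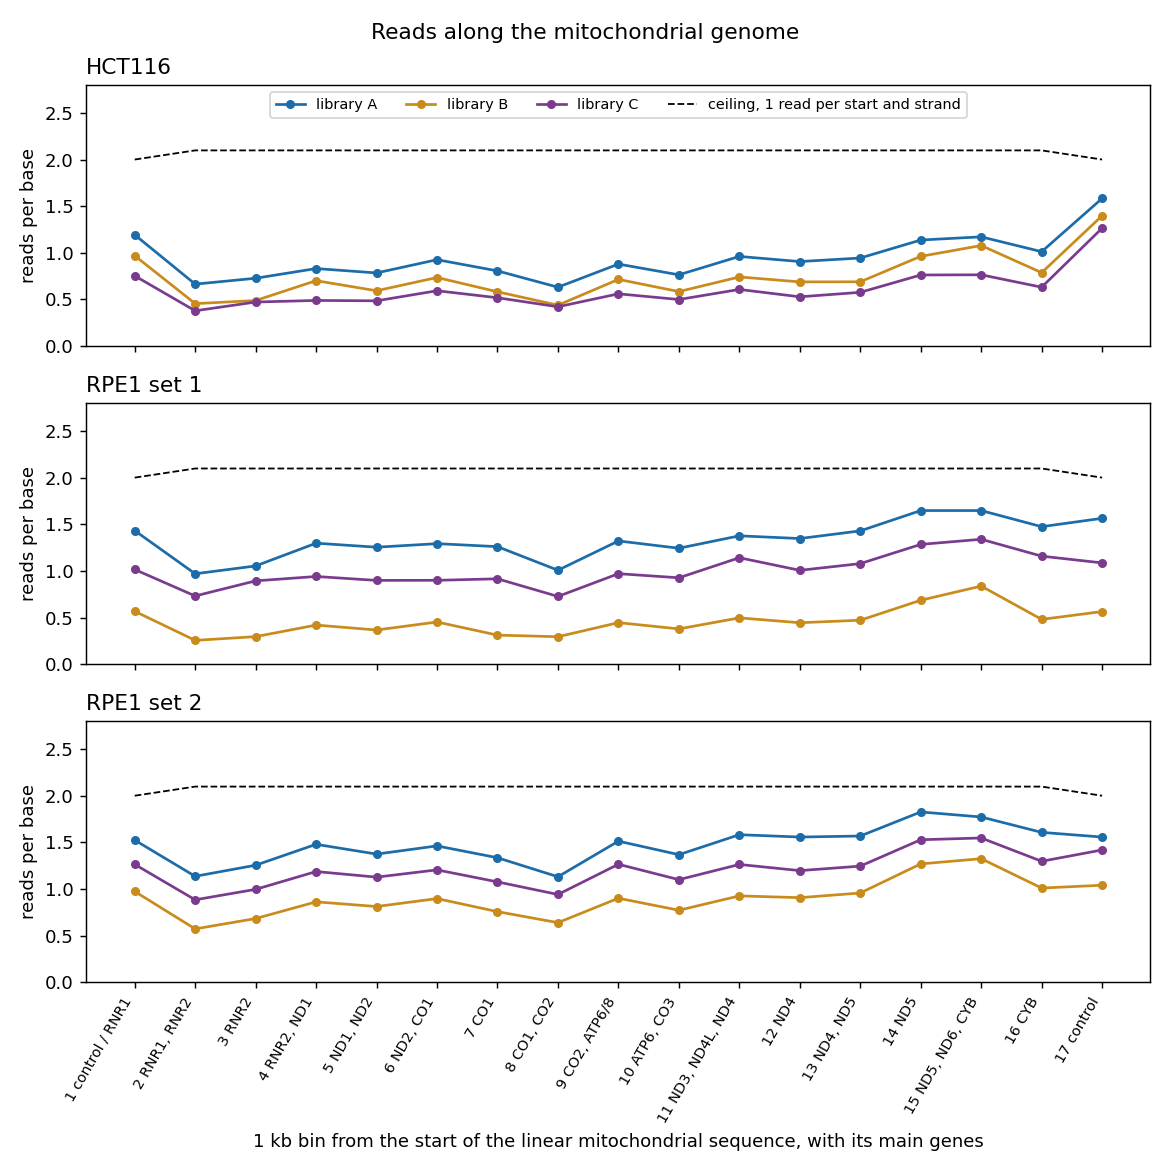
Reads per base in each mitochondrial bin, by library, for HCT116, RPE1 set 1 and RPE1 set 2; the dashed line is the highest density that 1 read per start and strand allows. The curves of a set run in parallel, with low points at bins 2 and 8 and a high stretch at bins 14 and 15. The last bin is the highest only in HCT116.

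The control region was the part where the lines differed most. The last bin held 904, 798 and 722 reads in HCT116 libraries A, B and C, against 893, 322 and 620 in RPE1 set 1 and 889, 594 and 810 in RPE1 set 2. HCT116 library A thus had about as many reads there as library A of either RPE1 set, with fewer mitochondrial reads in all. Library A filled 79.2% of the possible reads of that bin in HCT116, 78.2% in RPE1 set 1 and 77.8% in RPE1 set 2. If 1 read is kept for each start and strand, counts this near the ceiling understate the DNA present. Per base, the last bin had 1.72 to 2.15 times the mitochondrial mean of the library in HCT116 and 1.06 to 1.24 times in RPE1, and the lines did not overlap. The first bin, partly control region, showed a smaller difference of the same kind. It held 1193, 969 and 753 reads in HCT116, against 1432, 567 and 1015 in RPE1 set 1 and 1524, 974 and 1264 in RPE1 set 2. Relative to the mean this was 1.28 to 1.34 times in HCT116 and 1.02 to 1.25 times in RPE1, again without overlap.

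Set against RPE1, relative density in HCT116 was 1.68 times as high in the last bin and 1.2002 times in the first, and 0.912 to 1.03 times in the 15 bins between. The libraries of the lines also stood apart in bin 6 (end of MT-ND2 to start of MT-CO1) and bin 13 (MT-ND4 to MT-ND5), by far less. Bin 6 averaged 1.01 times the mean in HCT116 and 0.978 ± 0.029 times in RPE1 (SD, n = 2 sets), and bin 13 averaged 0.985 in HCT116 and 1.06 ± 0.0069 in RPE1. After the allowance for the ceiling, bins 12 to 14 were lower in HCT116 without overlap, at 0.905, 0.890 and 0.872 times RPE1, and bin 6 overlapped. All these values are relative to a mean that includes the first and last bins. The height of those 2 bins in HCT116 therefore lowers its other bins on this scale. Whether bins 12 to 14 differ between the lines apart from this was not tested. With the ceiling allowed for, the last bin stood at 2.63 times the mean in HCT116 and 1.25 ± 0.025 times in RPE1 (SD, n = 2 sets), a ratio of 2.10. No p-value was computed for this difference between 1 set and 2.

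Within libraries, control region density was set against the 15 bins of rRNA, tRNA and protein genes. The first and last bins together had 1.62 times the coding density in HCT116 and 1.12 times in RPE1, and were higher in 9 of 9 libraries. The mean log2 ratio was 0.34 ± 0.28 (SD, n = 9 libraries), with p = 0.0039 in an exact two-sided sign-flip permutation test over libraries, the smallest that 9 libraries can give. Over the 3 sets the smallest possible p of the exact test is 0.25. Without HCT116 the mean log2 ratio was 0.17. Against the 8 full bins that share no sequence with the nuclear copy described further on, it was 0.24, with 7 of 9 libraries higher, and the RPE1 libraries then ran from -0.05 to 0.19, on both sides of 0. The 9 libraries come from 3 sets of 3 and are not 9 independent replicates, and all share a reference and its mapping. Each p therefore covers only the spread between these libraries.

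**Figure D3:**
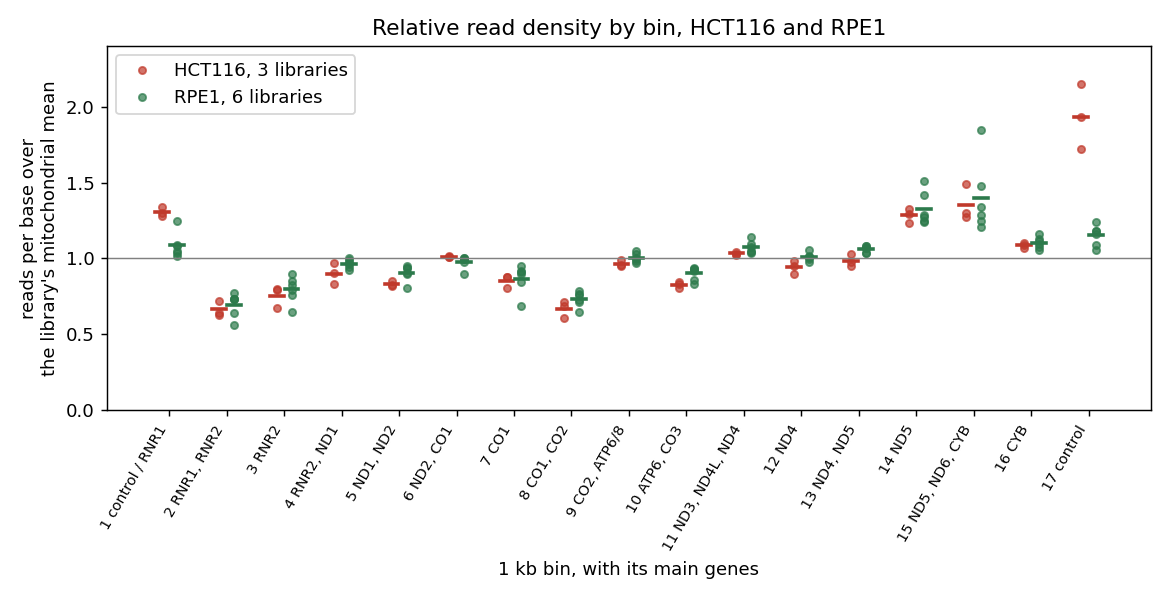
Reads per base in each bin divided by the mitochondrial mean of the library, for 3 HCT116 libraries (red) and 6 RPE1 libraries (green), with a short line at the mean of the libraries. HCT116 stands apart from RPE1 in the last bin, at 1.72 to 2.15 against 1.06 to 1.24, and less so in the first.

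The rRNA genes lay in the thinnest part of the circle. Bins 2 and 3, counted from the start of the sequence, hold most of MT-RNR1, the valine tRNA gene MT-TV and most of MT-RNR2 (16S rRNA). Bin 2 had 664, 455 and 378 reads in HCT116, against 969, 255 and 731 in RPE1 set 1 and 1136, 572 and 884 in RPE1 set 2. It was the lowest or next to lowest bin per base in all libraries. Both bins together had 0.621 to 0.732 times the density of the rest of the circle in HCT116 and 0.575 to 0.793 times in RPE1, so the lines overlapped here.

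The stretch with the genes of complexes IV and V, cytochrome c oxidase and ATP synthase, had fewer reads than the rest as a whole, though not in each bin. Bins 6 to 10 run from the end of MT-ND2 and the tryptophan, alanine, asparagine, cysteine and tyrosine tRNA genes (MT-TW, MT-TA, MT-TN, MT-TC and MT-TY), through MT-CO1, MT-TS1, MT-TD, MT-CO2, MT-TK, MT-ATP8 and MT-ATP6, to MT-CO3. Their density was 0.790 to 0.837 times that of the rest of the circle in HCT116 and 0.772 to 0.901 times in RPE1. Bin 6 averaged 1.01 times the mitochondrial mean in HCT116 and 0.978 in RPE1, and bin 9, with most of the ATP synthase genes, averaged 0.965 in HCT116 and 1.006 in RPE1. The low density lay in bins 7, 8 and 10. Bin 8, which holds the end of MT-CO1 and the start of MT-CO2, both catalytic subunits of cytochrome c oxidase, was the low point of this stretch. It had 631, 438 and 421 reads in HCT116, against 1007, 294 and 726 in RPE1 set 1 and 1131, 639 and 941 in RPE1 set 2. MT-ND1 and most of MT-ND2, subunits of complex I (NADH dehydrogenase), lie in bins 4 and 5 with the end of MT-RNR2, MT-TL1, MT-TI, MT-TQ and MT-TM. These bins had 0.808 to 0.880 times the density of the rest in HCT116 and 0.850 to 0.966 times in RPE1.

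The rest of the coding sequence had more reads on average, most of all in bins 14 and 15. Bins 11 to 14 hold MT-TG, MT-ND3, MT-TR, MT-ND4L, MT-ND4, the tRNA genes MT-TH, MT-TS2 and MT-TL2, and most of MT-ND5, all the protein genes among them being complex I subunits. They had 1.07 to 1.10 times the density of the rest in HCT116 and 1.12 to 1.22 times in RPE1, without overlap. The rest includes the first and last bins, whose height in HCT116 lowers its ratio here. Whether the lines differ in bins 11 to 14 apart from this was not tested. Bin 14 stood highest of bins 11 to 14, while bin 12 (MT-ND4) averaged 0.944 times the mitochondrial mean in HCT116 and 1.01 times in RPE1. Bins 15 and 16, with MT-ND6 (the complex I subunit encoded on the opposite strand), MT-TE, MT-CYB (cytochrome b of complex III), MT-TT and most of MT-TP, had 1.22 to 1.34 times in HCT116 and 1.17 to 1.55 times in RPE1. The peak of the coding part was at the end of MT-ND5 and at MT-ND6. Bin 14 had 1137, 962 and 762 reads in HCT116, against 1647, 685 and 1284 in RPE1 set 1 and 1826, 1269 and 1528 in RPE1 set 2. Bin 15 had 1171, 1078 and 764 in HCT116, against 1647, 837 and 1339 in RPE1 set 1 and 1772, 1325 and 1547 in RPE1 set 2. In the RPE1 libraries the highest bin per base was bin 14 or 15, and in the HCT116 libraries it was the last bin.

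Part of the mitochondrial sequence has a long, nearly identical copy in the nuclear genome near the start of chromosome 1, so that reads from it can map to either place. RefSeq (GRCh38.p14) lists there, in this order, the pseudogenes MTND1P23, MTND2P28, MTCO1P12, MTCO2P12, MTATP8P1, MTATP6P1 and MTCO3P12. In the deposited tables, 11 bins of the first megabase of the chromosome, in 3 runs, lay above 10 times the median autosomal bin in every set. The longest run had 7 bins, chr1:564001-571000 (hg19), and its bounds were the same at 5 and 20 times. It held 4816 reads in HCT116, against 6056 in RPE1 set 1 and 8487 in RPE1 set 2. This was 76.4 times the median autosomal bin per kb in HCT116, 78.6 times in RPE1 set 1 and 71.3 times in RPE1 set 2. Set against mitochondrial bins 5 to 10, where most of the genes copied in the run lie, the run had 41.8% as many reads in HCT116, 40.5% in RPE1 set 1 and 43.1% in RPE1 set 2.

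The bins beside the run were at the level of ordinary nuclear DNA. In library A, the first bin of the run had 218, 320 and 396 reads in HCT116, RPE1 set 1 and RPE1 set 2, and the bin before it had 3, 3 and 4. Bins 5 to 10 as deposited were set against the full bins with none of the genes listed for the copy. They had 0.826 to 0.869 times the reads of those bins in HCT116 and 0.756 to 0.899 times in RPE1. With the reads of the run added they had 1.16 to 1.23 times in HCT116 and 1.01 to 1.29 times in RPE1. With the ceiling allowed for in both places, the same sums gave 1.05 to 1.16 times in HCT116 and 0.940 to 1.10 times in RPE1, below 1 in library B of RPE1 set 1. How many reads of the run came from the nucleus was not tested.

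**Figure D4:**
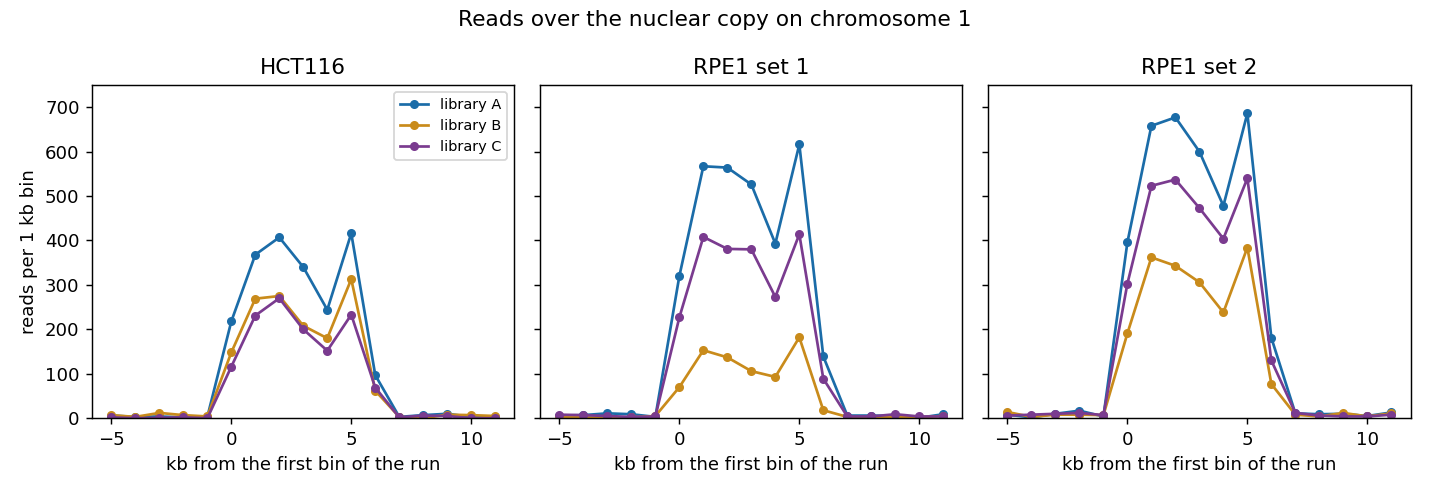
Reads per 1 kb bin over the nuclear copy on chromosome 1 and 5 bins on either side, by library, for HCT116, RPE1 set 1 and RPE1 set 2. The 7 bins of the run stand out from 0 to 17 reads per bin beside it and reach 686 reads in RPE1 set 2 library A.

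Finally, the reads of each set were compared between its libraries, after scaling by autosomal totals. This shows how the circle stood against nuclear DNA, whose parts differ in which library takes the largest share. An equal share would be 33.3%. Libraries A, B and C took 41.6, 23.02 and 35.3% of scaled mitochondrial reads in HCT116. They took 40.4, 31.4 and 28.2% in RPE1 set 1, and 32.3, 28.7 and 39.0% in RPE1 set 2. The library with most reads was A in HCT116 and RPE1 set 1 and C in RPE1 set 2, so for mitochondrial reads the sets did not share an order by column position. The autosomes were more alike between sets. Library A took its lowest autosomal share on chromosome 13 in each set, and its highest on chromosome 17 in HCT116 and 22 in both RPE1 sets. Not every autosome kept its order, and on chromosome 11 library C led in HCT116 and A in both RPE1 sets. The labels do not say whether a position holds the same fraction in each set.

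These shares were more even than those of most nuclear windows, though not equal. In a median autosomal 50 kb window the leading library held 51.3% in HCT116, 56.8% in RPE1 set 1 and 51.6% in RPE1 set 2. The windows held a median of 450, 591 and 885 reads in these sets, far fewer than the circle. Counting error raises a leading share more at low counts, and its part in the gap was not tested. Of 53706 windows, 6.84% in HCT116, 3.14% in RPE1 set 1 and 1.42% in RPE1 set 2 had a leading share at or below that of the mitochondrial genome. After allowance for the ceiling the leading share was 44.2% in HCT116, 46.9% in RPE1 set 1 and 38.1% in RPE1 set 2. The windows at or below it then made up 16.9, 15.1 and 0.784% of all.

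Whole autosomes, which average over early and late parts, gave a narrower scale. For library B they lay between 29.1 and 36.9% in HCT116, between 29.8 and 34.9% in RPE1 set 1, and between 26.4 and 36.8% in RPE1 set 2. The mitochondrial share of library B was below all 22 autosomes in HCT116. As deposited it was above 3 autosomes in RPE1 set 1 and above 4 in RPE1 set 2. With the ceiling allowed for, library B took 22.8% in HCT116, 25.45% in RPE1 set 1 and 24.6% in RPE1 set 2, below every autosome in each set. Shares of libraries A and C lay within the range of the autosomes in all 3 sets, as deposited and after the allowance.

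The run on chromosome 1, whose fullest bin in any library was at 32.7% of the ceiling, was set beside these shares. Libraries A, B and C took 43.6, 21.3 and 35.1% of its scaled reads in HCT116, 45.6, 25.1 and 29.3% in RPE1 set 1, and 34.2, 25.8 and 40.0% in RPE1 set 2. Library B was lowest in each set. The part of these reads that came from mitochondrial DNA was not tested. The rest of the first megabase of chromosome 1 gave library B 29.6% in HCT116, 34.9% in RPE1 set 1 and 31.6% in RPE1 set 2, and library C 23.5, 18.8 and 30.9%. That rest was not all at the ordinary nuclear level. Its highest bin held 387 reads in HCT116, 276 in RPE1 set 1 and 564 in RPE1 set 2.

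**Figure D5:**
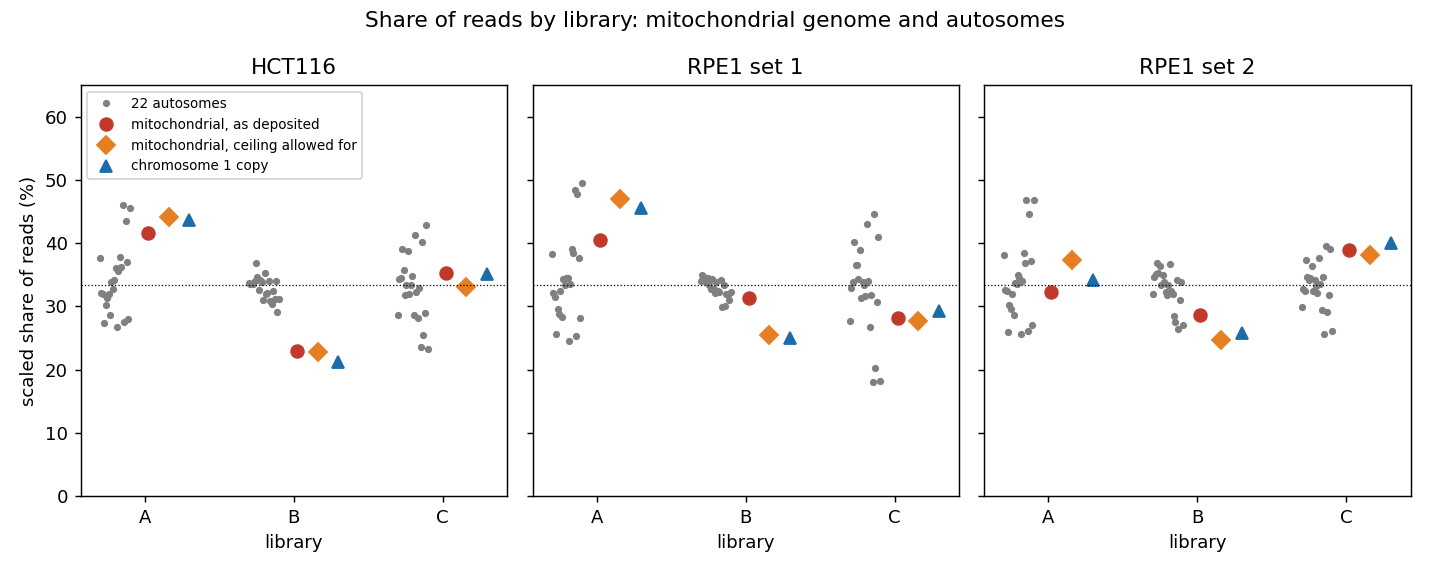
Scaled share of reads in libraries A, B and C for HCT116, RPE1 set 1 and RPE1 set 2: 22 autosomes (grey), mitochondrial genome as deposited (red) and with the ceiling allowed for (orange), and the chromosome 1 copy (blue); the dotted line is an equal share. Mitochondrial library B points lie below all autosomes in HCT116, and in RPE1 do so after the allowance.

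Mitochondrial bins also varied in these shares among themselves. Library B of RPE1 set 1, the shallowest, took 25.1% of scaled reads in bin 7 (MT-CO1) and 39.6% in bin 15 (MT-ND6 and its neighbours), and with the ceiling allowed for 20.1 and 31.8%. In RPE1 set 2 library B took 25.5 to 32.3%, and 22.6 to 27.5% after the allowance, and in HCT116 20.2 to 25.7% and 19.6 to 26.3%. Bin 15 gave library B its highest share in all 3 sets, also after the allowance.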

How the data were processed

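Nascent DNA was sequenced as single-end reads of 50 bases, per the labels' protocols. The tables deposited by the authors give unscaled read counts, in whole numbers, for each 1 kb bin. The submitters' processing notes name bedtools 2.25, SAMtools 1.2, Bowtie2 and hg19 without roles. How duplicates were removed, and what was done with reads of several possible places, is not stated in the sources used here. Columns were tied to sets by the table names in the labels, and not to fractions.

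Shares were taken of all reads of a library. Column shares were scaled by autosomal totals, and autosomal 50 kb windows needed 25 bins with a read and 30 reads in each set. The ceiling was 2 strands times the possible read starts overlapping a bin (2098, with 2000 and 1142 in the first and last bins). The allowance was -ln(1 - filled fraction) times the ceiling, and was tried on simulated data. Such data cannot show how duplicates were removed from the deposited reads. Genes were placed in bins from the textbook map, and their order matched RefSeq (GRCh38.p14) for 37 of 37. No coordinates of that build are printed. All 37 genes were named by role, with the control region bins and the highest and lowest bins in full. Members and lists were chosen with earlier results of these data known. Python 3.11.15, numpy 2.4.6, pandas 2.3.3 and scipy 1.17.1 were used.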

Additional observations from a re-analysis of the deposited data

How the results depend on the processing

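Of 86 alternative values, 67 kept their side of the threshold or stayed within the spread of the RPE1 sets (for window and bin counts, within 1.5 times) and 19 moved. That spread was also used for HCT116. Allowing for the ceiling moved the mean share to 0.182% in HCT116 and 0.174% in RPE1, density over the median autosomal bin to 405 and 416 times, and the variation over bins to 46.7 and 28.7%. That each rose follows from its construction. On the median autosomal bin the order of the lines in density turned: HCT116 over RPE1 was 0.974 with the allowance and 1.12 without it. On the mean autosomal bin it did not turn, at 1.02 with the allowance and 1.18 without it. Libraries B and C of RPE1 set 1 changed order in column shares (B 25.45%, C 27.6%). The allowance also moved library A of RPE1 set 1 to 46.9%, library B of RPE1 set 2 to 24.6%, and the windows at or below the mitochondrial leading share to 16.9% (HCT116), 15.1% (RPE1 set 1) and 0.784% (RPE1 set 2). Without the first and last bins, HCT116 had a share of 0.120% and a variation of 21.1%; bin 17, its densest, is then left out. Scaling by the median autosomal bin gave libraries A and B 49.2 and 19.4% in HCT116, and library B 22.7% in RPE1 set 1, and put library A of RPE1 set 2 (36.9%) above library C (36.2%); the cause was not tested. With 500 kb windows, 5.99% (RPE1 set 1) and 3.47% (RPE1 set 2) lay at or below, and the cause was not tested. Leaving out either RPE1 set, the RPE1 share ran from 0.107 to 0.128%, the density from 222 to 334 times, the variation from 16.7 to 21.4% and the ratio of the lines from 1.10 to 1.32. With each set left out, the control region log2 ratio ran from 0.17 to 0.45. No paired analysis was possible because no column is named for its fraction. The allowance assumes equally likely starts, and under the rule assumed depth sets how much each library is held down by the ceiling.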
